A study of Mus musculus with 148 samples.

Results

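Immune cells of the premetastatic lung (Pre-MET), taken while the primary breast tumor was still in place, were compared with immune cells of distal normal tissue, lung sections without visible lesions from mice that carried metastases elsewhere in the lung. Members were chosen by the status given for each plate. They comprised 36 of 148 plates, 17 of 27 mice (3 Pre-MET and 14 distal normal) and 5380 of 23425 annotated immune cells (1406 and 3974). All 17 mice were C57/b6 PA-GFP females injected at 8 weeks of age with EO771-tdTomato cells, a mouse breast cancer line carrying a red fluorescent protein, and all cells were sorted as CD31-negative and CD45-positive. Pre-MET lungs were whole lungs taken before resection. Distal normal lungs came from mice whose tumor was resected 3 weeks after injection and whose lungs were taken later, once metastases had appeared. Time since injection, surgery, the presence of metastases and the piece of lung sampled therefore differed between the groups together and cannot be told apart. Relapse-free lungs and lungs of 3 control mice, sorted through the same gate, were used as references. Relapse-free mice were injected at 8 weeks of age, resected 3 weeks after injection and did not develop metastases. Of 6 relapse-free mice 5 were used, since mouse 11 was sequenced in a batch that held neither group, and plates of mice 6 and 7 that were sorted through other gates were left out. Fewer cells of a type and more cells of the others cannot be told apart in shares.

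Monocytes and neutrophils are short-lived myeloid cells that leave the bone marrow, circulate and enter the lung, where inflammatory signals induce them to transcribe chemokine and cytokine genes within hours. T cells reach the lung as naive cells, which circulate and express Lef1, or as activated cells that have met antigen and express granzymes. NK cells kill target cells without prior priming and carry their cytotoxic granules ready-made.

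The sequencing batches were separate. The 8 Pre-MET plates were in batches 99 and 111 (early batches) and the distal normal plates in batches 112, 118, 124 and 128 (late batches), and 0 batches held both groups. Early and late are names given here by the batch number, which carries no date, and the line between them follows the groups. Group and batch could thus only be compared through the relapse-free lungs, of which 2 mice (6 and 7) were in early batches and 3 (18, 29 and 35) in late batches (112, 118 and 128). Batch 124, with 4 of the 14 distal normal mice, held no relapse-free lung. For most of the named results the early-to-late difference in these lungs is given beside them. Median UMIs (unique molecular identifiers, each 1 captured mRNA molecule) per cell ranged from 930 to 1085.5 in Pre-MET mice and from 682 to 2743.5 in distal normal mice. The median percentage of mitochondrial UMIs was 2.77% ± 0.02 (SD, n = 3) in Pre-MET and 2.10% ± 0.43 (SD, n = 14) in distal normal lung (exact permutation test, two-sided, p = 0.0176, adjusted p = 0.0706 over 4 measures). The 144 wells left empty on these plates held at most 79 UMIs. In the summed counts, all 10 markers listed for each of monocytes, neutrophils, T cells and NK cells were detected in that lineage in both groups.

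Monocytes were the largest lineage in Pre-MET lung. They made up 58.4%, 43.6% and 59.9% of immune cells in Pre-MET mice 8, 9 and 10, and 13.1% to 71.3% (median 38.3%) in distal normal mice. Of the 14 distal normal mice, 12 were below all Pre-MET mice and 2 above them. The means were 54.0% ± 9.01 (SD, n = 3) and 36.9% ± 15.4 (SD, n = 14), and the difference did not pass the test (exact permutation test over 680 splits, two-sided, p = 0.0853, adjusted p = 0.299 over 7 lineages). Both means were above those of the relapse-free lungs, 22.2% in early and 19.6% in late batches, and of the control lungs, 17.9% ± 1.08 (SD, n = 3). The early-to-late difference in relapse-free lungs, 2.60 percentage points, was smaller than the 17.0 points between Pre-MET and distal normal lung. Within distal normal lung the mean monocyte share also differed by batch, with 15.6% in batch 128, 23.7% in 112, 40.5% in 124 and 42.9% in 118. The part of the batches in the monocyte share was not tested.

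B cells, which make antibodies, were the other lineage with a low unadjusted p. They made up 4.42%, 7.26% and 4.32% of immune cells in Pre-MET mice and 0% to 8.46% (median 1.75%) in distal normal mice, with 12 of 14 distal normal mice below all Pre-MET mice (exact permutation test, p = 0.0441, adjusted p = 0.299). In relapse-free lungs the batches differed the other way, with 3.60% in early and 9.16% in late batches. Macrophages made up 0.727% ± 0.93 (SD, n = 3) in Pre-MET and 5.77% ± 6.46 (SD, n = 14) in distal normal lung, with 10 annotated macrophages in all Pre-MET plates (adjusted p = 0.323, exact permutation test). Control lungs, with 8.31% ± 1.44 (SD, n = 3), had the highest mean macrophage share among these lungs. Relapse-free lungs had 6.72% macrophages in early and 6.53% in late batches. Neutrophils made up 12% ± 5.36 (SD, n = 3) and 21.0% ± 23.2 (SD, n = 14; adjusted p = 0.753, exact permutation test). The difference of -9.0 percentage points was close to the -9.97 points between early and late relapse-free lungs (4.83% and 14.8%, with the late mice from 0% to 25.0%). Their mean share in distal normal lung ranged from 9.24% in batch 124 to 54.9% in batch 112. It differed between plates of 1 mouse as well, since Pre-MET mouse 8 had 2.98% neutrophils on its batch 99 plates and 9.22% on its batch 111 plates. T cells (20.7% and 21.9%), NK cells (4.66% and 8.48%) and DCs (2.63% and 3.62%) had adjusted p values from 0.453 to 0.863. In relapse-free lungs these were 38.3%, 18.8% and 5.59% in early and 33.1%, 12.9% and 3.95% in late batches. In all, 0 of 7 lineages passed the threshold, and the subtype composition as a whole did not separate the groups (pseudo-F = 1.09, 6.77% of the variance, exact permutation p = 0.310, n = 17 mice).

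**Figure D1:**
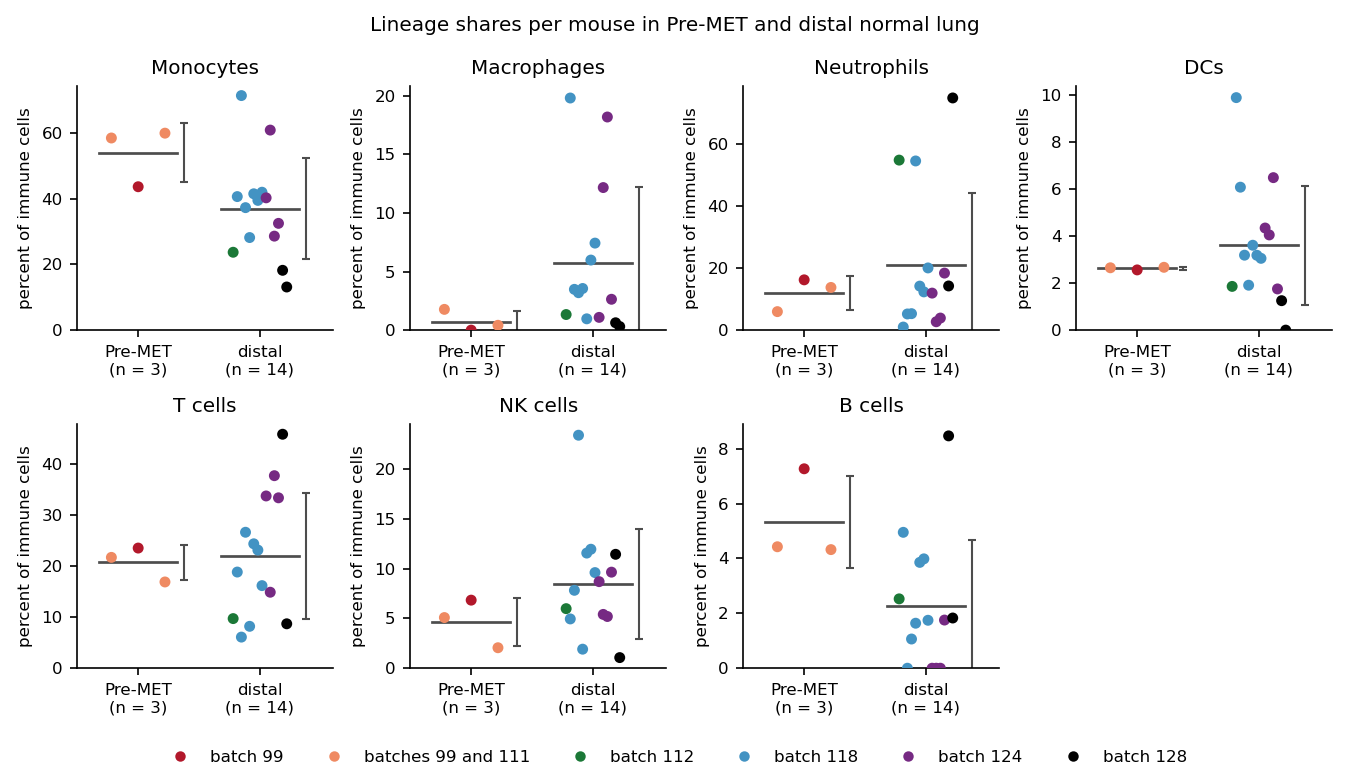
Percent of annotated immune cells in each lineage, 1 point per mouse colored by sequencing batch, with the group mean (line) and SD (bar at the side). Monocyte shares of the 3 Pre-MET mice lie between 43.6% and 59.9%, above 12 of the 14 distal normal mice, and no color is shared between the groups.

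Pre-MET lung held fewer activated T cells per naive T cell than most distal normal lungs. The log2 ratio of activated (CD8 Gzmk and CD8 Gzma) to naive (CD4 Lef1 and CD8 Dapl1) T cells was -1.91, -2.36 and -2.47 in Pre-MET mice 8, 9 and 10 and -2.81 to -0.25 (median -0.95) in distal normal mice. The exception, at -2.81, was mouse 24, with 7 T cells, and the 13 other distal normal mice were above all Pre-MET mice. The means were -2.25 ± 0.29 (SD, n = 3) and -1.13 ± 0.65 (SD, n = 14), a difference of -1.11 (exact permutation test, two-sided, p = 0.0147, adjusted p = 0.0588 over 4 ratios). The difference did not pass the threshold. It passed without mouse 24 (adjusted p = 0.00714) and, with all mice, as means of the plates of a mouse (-1.14, adjusted p = 0.00588). In the plate means 1 cell was added to each side on every plate, which weighs more where T cells are few. The difference did not pass with cells of at least 1000 UMIs (-1.87, adjusted p = 0.0824). Nor did it without the distal normal mice of the 2 most deeply sequenced batches (-1.09, adjusted p = 0.110). Without any 1 of the Pre-MET mice the adjusted p was 0.1 to 0.2. The early relapse-free mice 6 and 7 had -1.86 and -0.21 and the late ones -2.18 to -1.49, so mouse 6 lay within the range of the late mice and the higher early mean (-1.03, against -1.75) rested on mouse 7. Control lungs had -1.16 ± 0.31 (SD, n = 3), within the range of distal normal lung and above all Pre-MET mice.

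The means of the largest naive and activated subtypes differed in opposite directions. CD4 Lef1, the naive CD4 T cells, made up 58.2%, 70.0% and 63.4% of T cells in Pre-MET mice and 36.0% to 71.4% (median 52.0%) in distal normal mice, 11 of which were below all Pre-MET mice (exact permutation p = 0.0471, adjusted p = 0.345 over 22 subtypes). It made up 38.8% and 58.0% in the early relapse-free mice and 56.1% to 62.3% in the late ones. CD8 Gzmk, the granzyme K-expressing activated CD8 T cells, made up 11.2%, 13.6% and 12.2% in Pre-MET mice and 0% to 32.4% (median 24.1%) in distal normal mice, 12 of which were above all Pre-MET mice and 2 below (exact permutation p = 0.104, adjusted p = 0.459). Both mice below them, 23 and 24, had under 20 T cells. With only the 11 distal normal mice that had at least 20 T cells, the means were 12.4% and 25.0%. The difference then passed the threshold (exact permutation test, p = 0.00275, adjusted p = 0.0495). This p is the smallest possible for 3 against 11 mice. It was adjusted over fewer than the 22 subtypes, since the higher minimum of cells left some untested. Relapse-free lungs had 17.9% CD8 Gzmk cells in early and 16.6% in late batches, both between the 2 groups. CD8 Dapl1 (8.02% and 7.71%) and CD4 S100a4 (12.7% and 13.9%) had an adjusted p of 0.953.

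In neutrophils, the interferon-response subtype Neut Ifit3 made up 25.9%, 32.9% and 34.3% of neutrophils in Pre-MET mice and 0% to 33.3% (median 6.59%) in the 11 distal normal mice with at least 5 neutrophils. Of these, 10 were below all Pre-MET mice, and the remaining mouse, 24, had 2 Ifit3 cells of 6. The means of 31.0% ± 4.49 (SD, n = 3) and 11.4% ± 10.6 (SD, n = 11) had an exact permutation p of 0.0110 and an adjusted p of 0.121. Relapse-free mice spanned the same range in both periods, with 0% and 35.3% in early and 2.70% and 33.3% in late batches. Plasmacytoid DCs made up 21.6% of DCs in Pre-MET and 5.40% in the 9 distal normal mice with at least 5 DCs (exact permutation p = 0.00909, adjusted p = 0.121), from 37 Pre-MET DCs in all. Relapse-free lungs had 11.1% plasmacytoid DCs in early and 2.78% in late batches. The monocyte subtypes did not separate the lungs, with Mon Fn1, the fibronectin-expressing inflammatory monocytes, at 69.6% ± 5.65 (SD, n = 3) and 68.8% ± 16.6 (SD, n = 14) of monocytes, Mon Ace at 22.6% and 18.9%, and Mon Thbs1 at 1.29% and 5.28%. In all, 0 of 22 subtypes passed the threshold. Macrophage subtypes were left out of the permutation test because only 1 Pre-MET mouse had at least 5 macrophages. As an alternative, edgeR on cell counts gave them adjusted p values from 0.433 to 0.688.

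**Figure D2:**
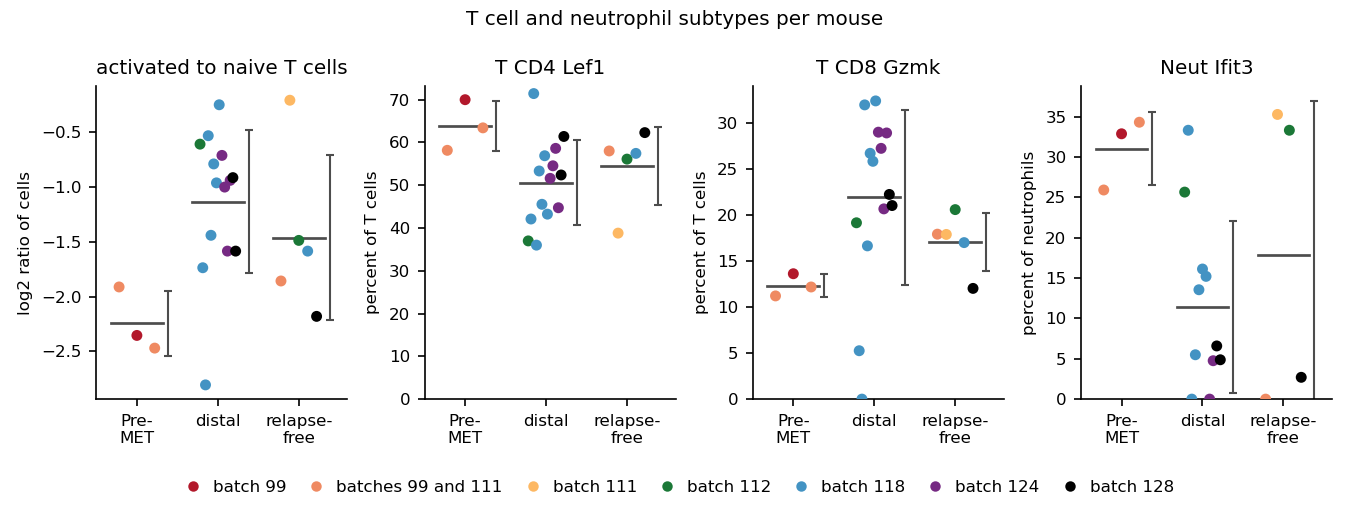
Log2 ratio of activated to naive T cells and the percent of 3 subtypes in their lineage, 1 point per mouse colored by sequencing batch, with the mean (line) and SD (bar). Pre-MET mice have ratios from -2.47 to -1.91, below 13 of 14 distal normal mice, and the early relapse-free mice have -1.86 and -0.21.

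Expression was compared on UMIs summed per mouse and lineage, with normalised counts (CPM, the UMIs of a gene scaled to the total of the library) as the level and edgeR for the test. In monocytes (3 Pre-MET and 14 distal normal mice), 151 of 4201 genes were higher (3.59%) and 39 lower (0.928%) in Pre-MET lung. In T cells (3 and 13 mice), 75 of 1173 genes were higher (6.39%) and 19 lower (1.62%). DESeq2 on the same genes gave a different balance, with 120 higher and 90 lower in monocytes and 75 and 44 in T cells. Without any 1 Pre-MET mouse, edgeR called 85 to 109 higher and 11 to 15 lower genes in monocytes. In T cells it then called 37 to 51 higher and 7 to 8 lower. In NK cells (3 and 7 mice), 13 of 486 were higher (2.67%) and 7 lower (1.44%). In neutrophils (3 and 9 mice), 6 of 1055 were higher (0.569%) and 0 lower (0.00%, with 122 genes in either direction at an unadjusted p under 0.05). DESeq2 called 18 higher and 8 lower genes in NK cells and 17 higher and 5 lower in neutrophils. In B cells (3 and 5 mice) 6.19% of 323 genes were higher and 3.72% lower, and in DCs (3 and 3 mice) 1.08% of 371 were higher and 0.00% lower (28 genes in either direction at an unadjusted p under 0.05). Lower abundance of a transcript per cell and fewer cells that express it cannot be told apart in these sums.

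Most of the genes that were higher in Pre-MET monocytes were copies of other genes, and the named ones were largely of the ribosome and mitochondria. Of 144 with an annotated type, 82 (56.9%) were pseudogenes, against 13.4% of all genes tested. Reads that mapped more than once were excluded, so the values of genes with near-identical copies, and of the copies, are uncertain. Rps10, a protein of the small ribosomal subunit, had 529, 521 and 547 CPM in Pre-MET mice and 0 to 115 CPM (median 51.4) in distal normal mice. All 14 distal normal mice were below all Pre-MET mice (log2 fold change 3.31 ± 0.34 SE, adjusted p = 1.08e-08). Relapse-free lungs showed the same step, with 449 and 617 CPM in the 2 early mice and 171, 36.1 and 18.3 CPM in the 3 late mice. mt-Co2, a mitochondrially encoded subunit of cytochrome oxidase, had 3051, 3409 and 3317 CPM in Pre-MET mice and 314 to 1511 CPM (median 822) in distal normal mice (1.99 ± 0.29 SE, adjusted p = 5.05e-06). It had 3780 and 2466 CPM in the early and 1146, 722 and 369 CPM in the late relapse-free mice. As for Rps10, the 2 early groups did not overlap with the 2 late groups.

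Counts over the gene lists were as follows, beside 3.59% higher and 0.928% lower among all genes tested in monocytes. Of 61 ribosomal protein genes tested in monocytes, 15 rose and 1 fell (median log2 fold change 0.50, against 0.02 for all genes tested), and their median was 0.62 between early and late relapse-free lungs and -0.14 with the batch period as a term. Of 17 mitochondrially encoded genes, 4 rose (mt-Co2, mt-Atp6, mt-Co3 and mt-Co1) and 0 fell. Their median was 0.57, against 0.18 between early and late relapse-free lungs, and 0.41 with the period as a term. Of 42 nuclear genes of oxidative phosphorylation 3 rose (Cox7c, Cycs and Uqcr10) and 0 fell (median 0.48, 0.34 between relapse-free lungs and 0.14 with the period as a term). Uqcr10, a subunit of complex III, had the weakest call of these (0.96 ± 0.29 SE, adjusted p = 0.0448), which was lost without any of 14 single mice (adjusted p at most 0.358), with DESeq2 (0.0606) and with size factors by the median of ratios (0.0879). Of 50 ribosomal protein genes tested in T cells 9 rose and 1 fell, against 6.39% and 1.62% of all genes tested. Of 24 tested in NK cells 3 rose and 1 fell, against 2.67% and 1.44%. The ribosomal medians of 0.38 in both lineages stood against 0.17 in T cells and 0.046 in NK cells between early and late relapse-free lungs. With the period as a term they were 0.32 and 0.0087. Rps27 and Rps29, also of the small subunit, had log2 fold changes of 2.49 and 2.90 in T cells, and of 2.12 and 2.33 between early and late relapse-free lungs. Of 34 type I interferon response genes tested in monocytes 1 rose (Oas1g, an antiviral sensor, 1.69 ± 0.37 SE, adjusted p = 0.00266), and its difference between early and late relapse-free lungs was 2.14. The share of all genes tested that rose was 3.59%, and the median of the list was -0.40, with 23.5% of its members above 0 (51.6% of all genes tested), -0.054 between relapse-free lungs and -0.25 with the period as a term. Without Pre-MET mouse 8 the adjusted p of Oas1g was 0.141, and that of Cycs 0.163.

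With the batch period (early or late) as a term, fitted together with the relapse-free lungs of 5 of these 6 batches (4 in neutrophils), 0 of 4650 genes were called in monocytes, 0 of 2783 in T cells, 0 of 1161 in NK cells and 1 of 1314 in neutrophils (0.0761%; edgeR, adjusted p under 0.05), with 263, 99, 40 and 145 genes at an unadjusted p under 0.05. The period itself, early against late relapse-free lungs, called 48 genes in monocytes (1.03%), 13 in T cells (0.467%), 13 in NK cells (1.12%) and 4 in neutrophils (0.304%). It was estimated from 2 and 3 relapse-free mice (2 and 2 in neutrophils), and the median SE of the called monocyte genes went from 0.41 to 0.80. The estimates themselves differed by direction. For the 150 higher monocyte genes with a value, the median log2 fold change went from 1.80 to -0.03, and 68 kept their sign. For the 39 lower genes it went from -2.22 to -1.10, and 36 kept their sign. T cells split in a like way, with 1.92 to 0.40 for 75 higher genes and -2.03 to -1.18 for 19 lower genes, all 19 of which kept their sign. The genes were chosen for a large difference between Pre-MET and distal normal lung, which enters both fits, so these medians are descriptions and were not tested.

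**Figure D3:**
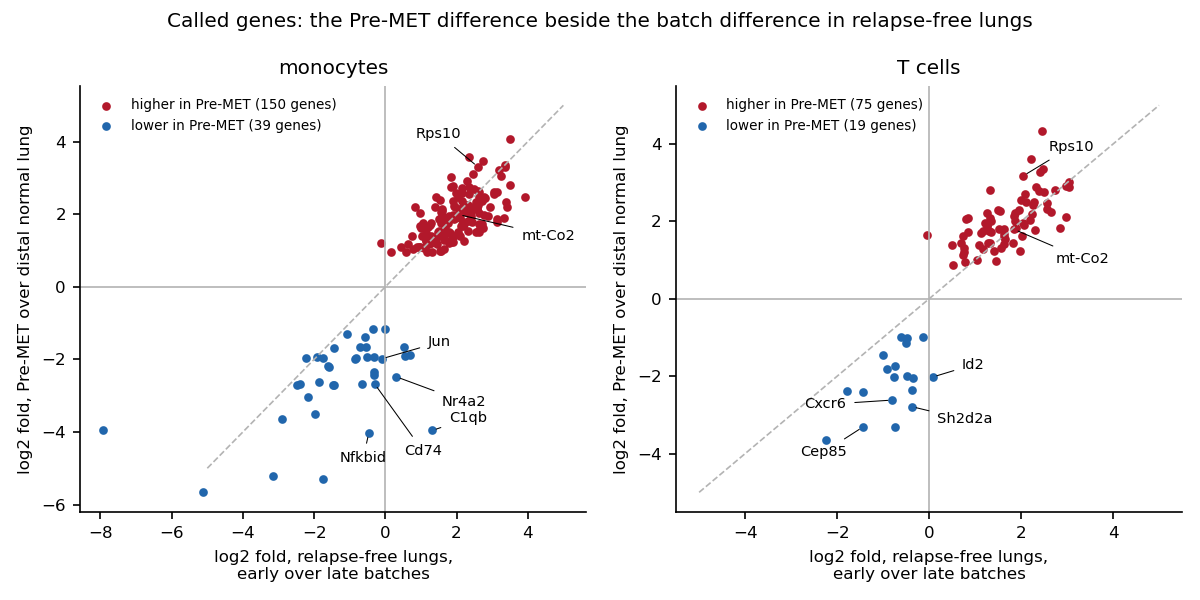
Each point is a gene called between Pre-MET and distal normal lung (edgeR, adjusted p under 0.05), with that log2 fold change on the y axis and the log2 fold change between relapse-free lungs of early and late batches on the x axis, for monocytes and T cells. Higher genes (red) lie near the dashed line of equal values, with medians of 1.80 and 1.93 in monocytes, and lower genes (blue) lie mostly below it, with medians of -2.22 and -0.87.

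The genes that were lower in Pre-MET monocytes included genes that cells switch on in inflammation. Neat1 and Ski were also among the lower genes. With each mouse left out, the log2 fold change of Neat1 ranged from -4.25 to -3.25, and its call was kept in all 17 fits. That of Ski ranged from -4.39 to -2.98, and its call was kept in 14 of 17. Nfkbid, which encodes a nuclear regulator of NF-κB (mm10 chr7:30421732-30428746, plus strand), had 9.40, 5.96 and 4.59 CPM in Pre-MET mice and 0 to 302 CPM (median 91.9) in distal normal mice. Except for mouse 23, listed at 0, all distal normal mice were above all Pre-MET mice (log2 fold change -4.04 ± 0.73 SE, adjusted p = 0.00019). The Pre-MET values rest on few UMIs. Summed monocyte UMIs were 409624 to 528802 in Pre-MET mice and went down to 16380 in distal normal mice. There a single UMI gives a CPM above all these Pre-MET values, so the count of mice above them depends on depth. The early relapse-free mice had 82.4 and 22 CPM, above the Pre-MET mice of the same batches, and the late ones 26.2, 36.1 and 136 CPM. The value with the batch period as a term was -3.53 ± 1.18 SE (adjusted p = 0.70).

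Nr4a2, an orphan nuclear receptor that is induced rapidly by many stimuli, had 28.2, 23.8 and 66.6 CPM in Pre-MET mice and 62.4 to 602 CPM (median 186) in distal normal mice. Of these, 13 were above all Pre-MET mice (-2.48 ± 0.48 SE, adjusted p = 0.000447), and mouse 32 was the exception. Early relapse-free mice had 229 and 176 CPM and late ones 138, 72.2 and 230 CPM, so the batches differed by 0.31 in the other direction, and the value with the period as a term was -2.75 ± 0.75 SE (adjusted p = 0.594). Jun, a subunit of the AP-1 transcription factor (mm10 chr4:95049034-95052222, minus strand), had 97.1, 38.7 and 78.1 CPM and 34.7 to 804 CPM (median 198), with 11 of 14 distal normal mice above all Pre-MET mice (-1.98 ± 0.53 SE, adjusted p = 0.018). It had 430 and 220 CPM in early and 217 to 390 CPM in late relapse-free mice. Without the 3 distal normal mice of the most deeply sequenced batches (17, 36 and 37), its adjusted p was 0.0609, and without any 1 of the Pre-MET mice it was 0.0585 to 0.220.

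Other induced genes are given beside their early-to-late difference in relapse-free lungs or their value with the period as a term. The part of the batches in these differences was not tested. Cxcl2, a chemokine that attracts neutrophils, had 21.9, 35.8 and 39.0 CPM in Pre-MET mice and 51.5 to 575 CPM (median 159) in distal normal mice, without overlap (-2.71 ± 0.56 SE, adjusted p = 0.0010). Its level was 110 and 121 CPM in early relapse-free mice, above all Pre-MET mice, and the difference between early and late ones was -1.48. Ier3, an early response gene (mm10 chr17:35821684-35822923), had 21.9, 71.5 and 23.0 CPM in Pre-MET mice and 57.5 to 528 CPM in distal normal mice, 13 of which were above all Pre-MET mice. Its log2 fold change was -2.70 ± 0.50 SE (adjusted p = 0.000219), and that of Ptgs2, which encodes cyclooxygenase-2, was -1.93 ± 0.53 SE (adjusted p = 0.0214). With the period as a term they had -1.23 ± 0.86 SE and -1.36 ± 0.90 SE. Egr1, an early response transcription factor, had -1.93 ± 0.51 SE (adjusted p = 0.0149) but the same difference, -1.92, between early and late relapse-free lungs, which left 0.03 ± 0.93 SE. Without any 1 of the Pre-MET mice the adjusted p was 0.105 to 0.245 for Ptgs2 and 0.0843 to 0.131 for Egr1.

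**Figure D4:**
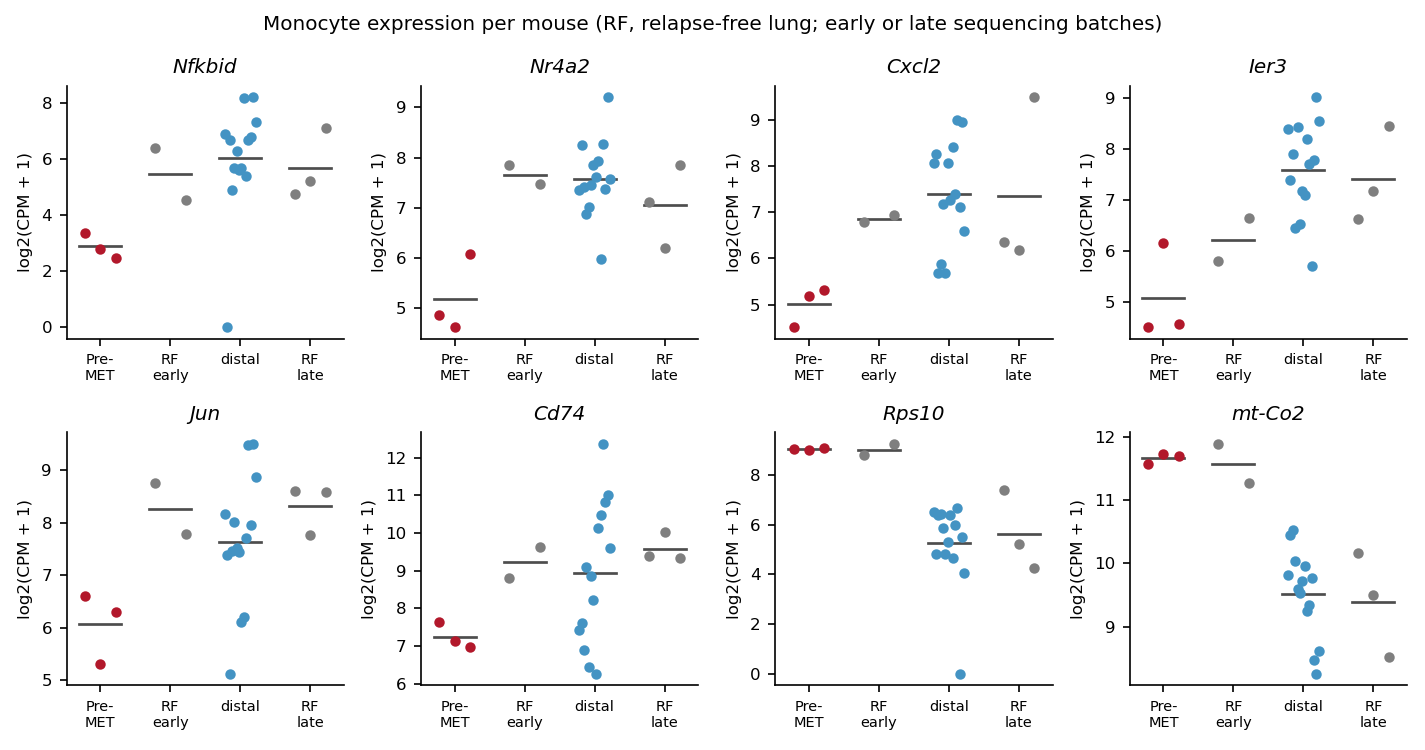
Log2(CPM + 1) of 8 genes in monocytes, 1 point per mouse with the group mean (line), for Pre-MET and relapse-free lungs of early batches and distal normal and relapse-free lungs of late batches. For Nr4a2, Cxcl2 and Jun the early relapse-free mice lie above all Pre-MET mice, whereas for Rps10 and mt-Co2 they lie with them and above both groups of the late batches.

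Counted over the list, 5 of 27 immediate early genes tested in monocytes fell (Ier3, Nr4a2, Egr1, Jun and Jund) and 0 rose (Jund was named after its values were seen; median -0.51, against 0.02 for all genes tested). This list holds genes that cells switch on soon after a stimulus, tissue dissociation included. Of all genes tested in monocytes, 0.928% fell and 3.59% rose. In other lineages the median of the list was below 0 as well. In T cells 2 of 14 genes fell (median -0.65), in NK cells 0 of 10 (-0.69) and in B cells 1 of 7 (-0.77). There 1.62%, 1.44% and 3.72% of all genes tested fell. Neutrophils had 0 of 18 (-0.22) and DCs 0 of 5 (-0.52), and 0.00% of all genes tested fell in either. Between early and late relapse-free lungs the median of the list was -0.22 in T cells, -0.41 in NK cells and -0.56 in B cells. It was -0.74 in neutrophils and -0.92 in DCs. With the period as a term it was -0.45 in T cells, -0.26 in NK cells and -0.52 in B cells. It turned to 0.44 in neutrophils (0.64 for all genes tested there) and 0.12 in DCs. In monocytes the median of the list was -0.09 between early and late relapse-free lungs and -0.45 with the period as a term. Of 10 interleukin-1 and TNF signalling genes, 0 passed the test in either direction (median -0.57, -0.084 between relapse-free lungs and -0.21 with the period as a term). Of 20 inflammatory monocyte genes 0 passed, and their median of -0.31 turned to 0.13 with the period as a term (-0.37 between relapse-free lungs). Most of the lower genes were also called within a single subtype. In Mon Fn1 monocytes alone (2.82% of 3901 genes higher and 0.641% lower), 22 of the 39 lower genes of all monocytes were called as well, of 35 tested there. Nr4a2 had -2.70, Nfkbid -4.47, Cxcl2 -2.38, Ier3 -2.39 and Ptgs2 -2.78 there, with adjusted p from 0.000274 to 0.0124 by edgeR.

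Promoters of 2 of these genes are shown because they hold letters of motifs of factors that drive induced transcription (RefSeq, GRCm38.p6, 250 bases before to 50 after the start, 5′ to 3′ on the strand of the gene). Capitals mark an NF-κB motif (GGGA, any base, then TTTCC) in Cxcl2 (chr5:90903649-90903948, plus strand), and TGACG, the core of a cAMP response element, in Nr4a2 (chr2:57123954-57124253, minus strand), each searched on both strands.
Cxcl2: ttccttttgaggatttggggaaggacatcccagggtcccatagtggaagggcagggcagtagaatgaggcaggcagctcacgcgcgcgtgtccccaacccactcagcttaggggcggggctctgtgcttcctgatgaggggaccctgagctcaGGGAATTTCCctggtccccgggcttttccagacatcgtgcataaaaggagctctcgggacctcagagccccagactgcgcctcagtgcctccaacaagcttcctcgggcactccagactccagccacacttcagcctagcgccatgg
Nr4a2: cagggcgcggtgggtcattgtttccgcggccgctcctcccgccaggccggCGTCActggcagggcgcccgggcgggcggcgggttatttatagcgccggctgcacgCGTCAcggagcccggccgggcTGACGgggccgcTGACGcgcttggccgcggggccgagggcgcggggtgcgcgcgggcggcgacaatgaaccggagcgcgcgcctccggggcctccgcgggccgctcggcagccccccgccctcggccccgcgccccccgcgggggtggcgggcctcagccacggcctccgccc
The first motif stood in 0.411% of 32851 promoters of this length and the second in 20.8%, and a match is a description of the letters.

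Cd74 and C1qb, which are typical of antigen-presenting cells and macrophages, were lower as well. Cd74, the invariant chain of MHC class II, had 200.5, 140.0 and 124 CPM in Pre-MET mice and 75.7 to 5918 CPM (median 526.2) in distal normal mice, with 10 of 14 above and 3 below all Pre-MET mice (-2.68 ± 0.80 SE, adjusted p = 0.0405; 0.0536 without distal normal mouse 25 and 0.127 to 0.183 without any 1 Pre-MET mouse). The call was also lost with DESeq2 (0.0651), with protein-coding genes only (0.0544) and with cells of at least 1000 UMIs (0.0594). The 3 highest, mice 33, 34 and 36, were in batches 124 and 128. The early relapse-free mice had 449 and 793 CPM, above all Pre-MET mice, and the late ones 647 to 1047 CPM, and the value with the period as a term was -2.33 ± 1.12 SE (adjusted p = 0.853). In Mon Fn1 monocytes alone Cd74 had -0.51 ± 0.63 SE (adjusted p = 0.800). The Mir5107 row, a microRNA gene that lies inside Cd74 on the same strand, cannot be told apart from it. Of 6 MHC class II genes tested Cd74 was the single one that passed (median of the list 0.01, and -0.23 with the period as a term). C1qb, a chain of complement C1q made by macrophages, had 3.13, 0 and 4.59 CPM in Pre-MET mice and 0 to 114 CPM (median 44.1) in distal normal mice (-3.96 ± 0.97 SE, adjusted p = 0.00728; 0.0575 without Pre-MET mouse 8 and 0.0905 without mouse 9), and early relapse-free mice had 0 and 66.1 CPM. It was not tested in Mon Fn1 monocytes for low counts, and its Pre-MET values in all monocytes rest on few UMIs as well. The summed alveolar macrophage markers in monocytes ranged from 1332 to 2480 CPM in Pre-MET and from 244 to 6906 CPM in distal normal mice, with 7 of 10 and 6 of 10 markers detected and Fabp1 and Krt79 at 0 in both. The summed dendritic cell markers ranged from 178 to 221 and from 122 to 612 CPM, with Clec9a at 0 in both, and 12 of 14 distal normal mice were above all Pre-MET mice. Their part in the difference was not tested. Hba-a1, a hemoglobin chain of red blood cells, was also called (-3.95 ± 1.21 SE, adjusted p = 0.0477). The summed erythroid markers in monocytes ranged from 4.75 to 28.4 CPM in Pre-MET and from 0 to 1554 CPM in distal normal mice, with 4 and 7 of 8 markers detected, and the call of Hba-a1 was lost without any of 9 single mice.

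Of the 19 genes lower in Pre-MET T cells, the named ones are described singly. Cxcr6, a chemokine receptor of tissue-resident and effector T cells (mm10 chr9:123806475-123811760, inside Fyco1 on the opposite strand), had 0, 110 and 38.6 CPM in Pre-MET mice and 0 to 589 CPM (median 253) in 13 distal normal mice, 11 of which were above all Pre-MET mice (-2.62 ± 0.76 SE, adjusted p = 0.0237; over 0.05 without Pre-MET mouse 8 or 10 or distal normal mouse 27 or 28, at most 0.171). Sh2d2a, a T cell adaptor protein induced on activation, had 0, 48.8 and 57.9 CPM and 0 to 481 CPM (median 250), with 12 of 13 distal normal mice above all Pre-MET mice (-2.79 ± 0.81 SE, adjusted p = 0.0237; 0.0751 with protein-coding genes only and 0.107 with no filter on low counts). Its counts were under the filter in 8 of the 16 fits that left out 1 mouse, those without a Pre-MET mouse among them, and in the other 8 it kept the call. Early relapse-free mice had 126 and 144 CPM of Cxcr6 and 192 and 96.3 CPM of Sh2d2a, above all Pre-MET mice, and with the period as a term the values were -1.71 ± 1.05 SE and -2.32 ± 1.03 SE.

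Ptpn22, a phosphatase that restrains T cell receptor signalling, had -2.35 ± 0.59 SE (adjusted p = 0.00777), with 12 of 13 distal normal mice above all Pre-MET mice, and the adjusted p was 0.0758 without Pre-MET mouse 10. Its level was 157 and 257 CPM in early and 128 to 406 CPM in late relapse-free mice, and the value with the period as a term was -1.90 ± 0.88 SE (adjusted p = 0.998). Ldha, lactate dehydrogenase of glycolysis, had 482, 537 and 579 CPM in Pre-MET mice and 779 to 1524 CPM in distal normal mice without overlap (-1.14 ± 0.32 SE, adjusted p = 0.0194; 0.0546 to 0.124 without any 1 Pre-MET mouse). Its difference between early and late relapse-free lungs was -0.50. Id2 and Il2rb, chosen after their values were seen, are a transcriptional regulator and a cytokine receptor chain of effector and memory lymphocytes. Id2 had 231, 317 and 116 CPM in Pre-MET mice and 172 to 1256 CPM (median 970) in distal normal mice, with 11 of 13 above all Pre-MET mice (-2.02 ± 0.46 SE, adjusted p = 0.00319). The relapse-free mice of early batches had 824 and 963 CPM and those of late batches 635 to 978 CPM, all above the Pre-MET mice, and the value with the period as a term was -2.0 ± 0.67 SE (adjusted p = 0.998). Il2rb had -2.0 ± 0.57 SE (adjusted p = 0.0220), and lost the call without any of the 3 Pre-MET mice (adjusted p from 0.0683 to 0.177). It differed by -0.47 between early and late relapse-free lungs.

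Of 16 naive and memory lymphocyte genes tested in T cells 1 fell (Cxcr6) and 0 rose (median -0.43, with 25% of the members above 0, against -0.08 and 44.7% for all genes tested). Of all genes tested in T cells 1.62% fell and 6.39% rose. The median of the list was -0.85 between early and late relapse-free lungs and turned to 0.33 with the period as a term. Of 6 cytotoxic granule and NK receptor genes tested in T cells 0 passed (median -1.02, with all 6 below 0, 0.52 between relapse-free lungs and -1.56 with the period as a term), and the summed NK cell markers in T cells ranged from 531 to 1335 CPM in Pre-MET and from 0 to 2670 CPM in distal normal mice. Other marker sums in T cells also differed in level. The summed T cell markers were above all Pre-MET mice in 10 of 13 distal normal mice (5003 to 5648 CPM in Pre-MET and 4968 to 7684 CPM in distal normal mice), those of dendritic cells in 8 and those of erythroid cells in 9. The B cell markers were below all Pre-MET mice in 9 of 13 and the neutrophil markers in 8. Their part in the T cell differences was not tested. In CD4 Lef1 T cells alone (4.65% of 904 genes higher and 0.774% lower), Cxcr6, Sh2d2a, Ptpn22 and Id2 were too low to be tested. The 7 lower genes there included Ltb, a lymphocyte cytokine of the TNF family (-1.98 ± 0.44 SE, adjusted p = 0.0040), Junb, an AP-1 subunit (-1.95 ± 0.56 SE, adjusted p = 0.0336), and Cep85, a centrosomal protein (-3.35 ± 0.97 SE, adjusted p = 0.0364). All 3 had negative log2 fold changes between early and late relapse-free CD4 Lef1 T cells (-1.0 for Ltb, -1.60 for Junb and -1.88 for Cep85), and with the period as a term Ltb had -0.99 ± 0.68 SE. In all T cells Ltb had -1.44 ± 0.42 SE (adjusted p = 0.0237; 0.191 without Pre-MET mouse 8 and 0.162 without mouse 9), and -0.32 with the period as a term. Of the higher genes in T cells, Ndufa11, a subunit of mitochondrial complex I, had a relapse-free difference of -0.05 between the batches. It had 1098, 696 and 618 CPM in Pre-MET mice and 70.0 to 484 CPM in distal normal mice (1.65 ± 0.41 SE, adjusted p = 0.00777; 0.171 without Pre-MET mouse 8 and 0.0549 without mouse 9), and 272 to 419 CPM in the 5 relapse-free mice of either period.

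In NK cells, Nfkbia, the inhibitor of NF-κB that NF-κB itself induces, had 343, 99.3 and 608 CPM in Pre-MET mice and 957 to 3625 CPM (median 1505) in 7 distal normal mice. The groups did not overlap (-2.57 ± 0.64 SE, adjusted p = 0.0180; 0.0605 without Pre-MET mouse 8 and 0.151 without mouse 9). In NK Ncr1 cells alone, 2.71% of 442 genes were higher and 1.36% lower. The early relapse-free mice had 491 and 638 CPM and the late ones 1198 to 1584 CPM, so the batches differed by -1.32, and the value with the period as a term was -1.23 ± 0.82 SE (adjusted p = 0.999). Its promoter holds 1 match to the same NF-κB letters on the opposite strand, in capitals (RefSeq, GRCm38.p6, chr12:55492598-55492897, minus strand).
Nfkbia: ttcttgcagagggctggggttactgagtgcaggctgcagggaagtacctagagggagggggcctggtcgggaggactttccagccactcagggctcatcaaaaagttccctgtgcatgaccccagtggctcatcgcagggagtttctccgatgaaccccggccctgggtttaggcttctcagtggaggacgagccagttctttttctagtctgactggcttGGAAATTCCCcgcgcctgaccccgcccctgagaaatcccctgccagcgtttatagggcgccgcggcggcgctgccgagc
Adamts14, a secreted metalloprotease, had 944, 0 and 203 CPM in Pre-MET mice and 882 to 2760 CPM in distal normal mice, 6 of 7 of which were above all Pre-MET mice (-2.38 ± 0.67 SE, adjusted p = 0.0394). Its adjusted p was over 0.05 without Pre-MET mouse 9 or 10 or distal normal mouse 27 or 30 (at most 0.194). The call was also lost with at least 20 cells per mouse (edgeR, adjusted p = 0.125), with no filter (0.279) and with at least 10 UMIs in 3 mice (0.0503). The relapse-free difference of Adamts14 between the batches was -0.06. Pre-MET NK cells numbered 65 over the 3 mice. Of 22 cytotoxic granule and NK receptor genes tested in NK cells, 0 passed in either direction (median -0.07, equal to that of all genes tested at 2 decimals).

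In neutrophils, Actg1, cytoplasmic actin (mm10 chr11:120345690-120348542, minus strand, holding 2 miRNA genes), was among the 6 higher genes. It had 2321, 1664 and 2092 CPM in Pre-MET mice and 125 to 867 CPM (median 508) in 9 distal normal mice, without overlap (2.01 ± 0.37 SE, adjusted p = 0.00685; 0.0613 without Pre-MET mouse 8 and 0.0809 without mouse 10). In Neut Lcn2 cells alone, 0.183% of 545 genes were higher. Early relapse-free mice had 668 and 715 CPM and late ones 600 and 483 CPM, so that Pre-MET mice were above the relapse-free mice of their own batches, and the value with the period as a term was 1.59 ± 0.78 SE (adjusted p = 0.451). Myl6, a myosin light chain, had 2.70 ± 0.64 SE (adjusted p = 0.0460) but 3.21 between early and late relapse-free lungs, and lost the call without any of 11 single mice. Of 21 type I interferon response genes tested in neutrophils 0 passed (median 0.01, -0.90 between early and late relapse-free lungs and 1.16 with the period as a term). Irf7 had -1.87 ± 0.69 SE (adjusted p = 0.240). Of 15 neutrophil granule genes 0 passed, among them Mmp8, a collagenase of the granules (-1.37 ± 0.53 SE, adjusted p = 0.294). Their median of -1.11 stood beside -1.0 between early and late relapse-free lungs and turned to 0.32 with the period as a term. All genes tested in neutrophils shifted as well, with medians of -0.02, -0.70 between relapse-free lungs and 0.64 with the period as a term. These values rest on few cells, since neutrophils were 2.15% of 559 and 7.52% of 226 immune cells in early relapse-free mice 6 and 7. Ccl4, a chemokine, was the single gene called with the batch period as a term (-5.78 ± 1.17 SE, adjusted p = 0.0238). It was not called without it (-1.11 ± 0.69 SE, adjusted p = 0.570), and the value rests on 1169 and 4576 CPM in the 2 early relapse-free mice against 68.1 and 158 CPM in the 2 late ones.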

How the data were processed

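The samples were 384-well plates of sorted lung immune cells, dead cells and doublets excluded at the sort, with 3′ libraries made by SPID-seq. The authors deposited raw UMI counts per gene and well and an annotation of each cell, which was used unchanged. Per the study's methods and the submitters' processing notes, reads were demultiplexed (bcl2fastq 2.15.0.4), aligned to mm10 with HISAT, dropped where they mapped more than once, and counted over UCSC exons. Genes sharing exons on a strand were joined, and cells under 500 UMIs were discarded. No doublet caller was run here.

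Plates were grouped by status and counts summed per mouse, the replicate. Summed UMIs per mouse ranged from 16380 to 749446 in monocytes, 7421 to 918670 in neutrophils, 8915 to 948909 in T cells and 8757 to 224880 in NK cells. Shares, taken per mouse with at least 5 cells of the lineage for subtypes, were compared by a two-sided exact permutation of the difference in means (680 splits for 3 against 14 mice, smallest p 0.00147), with p-values adjusted (Benjamini-Hochberg) within lineages, subtypes or ratios. Ratios had 1 cell added to each side. Genes were tested in mice with at least 10 cells of the lineage with edgeR 4.0.16 in R 4.3.3 (filterByExpr, TMM, quasi-likelihood), and a gene was called where its Benjamini-Hochberg adjusted p was under 0.05. Log2 fold changes are Pre-MET over distal normal lung unless given as early over late relapse-free lungs. SE is the absolute log2 fold change over the root of its F. CPM in relapse-free mice come from the joint fit. Gene types came from GENCODE vM21. Genes named were the 8 largest called rises and falls per lineage, predicted names left out, and of each of 22 lists up to 4 tested members with the smallest p. The members, lists and tests were chosen with earlier results of these data known. The permutation test of means, the p-value adjustment and the edgeR gene tests were also run on simulated data with known answers. DESeq2 and the pseudo-F test were not. Figures were drawn with matplotlib 3.10.9.

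Alternatives were DESeq2 1.42.0, other filters and size factors, higher cell and UMI minimums, plate means, leaving out each mouse and a batch-period term. Protein-coding genes only, and leaving out the 2 most deeply sequenced batches (mice 17, 36 and 37), were added after seeing the data.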

Additional observations from a re-analysis of the deposited data

Results flagged for a closer look

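Of 25 groups of values checked, 3 held a mouse far from the others, and chance gives about 1 in 20. Il1b, a pro-inflammatory cytokine, reached 27415 CPM in neutrophils of distal normal mouse 36. Nfkbia reached 3625 CPM in NK cells of distal normal mouse 25, and Rps27 reached 1543 CPM in NK cells of distal normal mouse 34. Outside the immune cells, 82 wells of distal normal mouse 17 were annotated as erythrocytes, against at most 4 in a control mouse and 0 in the Pre-MET mice. Relapse-free mouse 18, of the same batch 112, had 64.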

How the results depend on the processing

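No paired analysis was possible because no mouse gave both lungs. A comparison within batches could not be run, since 0 batches held both groups, and the Neut Lcn2 neutrophils could not be fitted with the batch period. The limits are the 3 Pre-MET mice, the batches, which cannot be told apart from the groups except through 5 relapse-free mice, and distal normal mice with few cells.

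With the batch period as a term, called genes numbered 0 in monocytes, T cells, NK cells, Mon Fn1, CD4 Lef1 and NK Ncr1 cells, DCs and B cells, and 1 in neutrophils. Of 72 named genes, 3 that had not been called without the term stayed uncalled, 53 lost the call, 1 gained it and 15 changed sign. The values of the last were -0.92 (Myl6), -0.080 (Rps27) and -0.35 (mt-Atp6) in NK cells, and -0.58 (Myl6) and 6.18 (Irf7) in neutrophils. In monocytes they were -0.95 (Cycs), 0.029 (Egr1), 3.98 (Hba-a1), -0.33 (Myl6), -0.43 (Oas1g), -0.47 (Rpl10-ps1), -0.14 (Rpl35), -0.17 (Rps27), -1.04 (Rps6-ps3) and -0.038 (mt-Co2). With protein-coding genes only, fewer genes were tested, and 51 were called in monocytes, 1 in neutrophils, 23 in T cells, 9 in NK cells, 42 in Mon Fn1, 0 in Neut Lcn2, 17 in CD4 Lef1 and 8 in NK Ncr1 cells. DESeq2 called 103 higher and 85 lower genes in Mon Fn1 cells (110 and 25 with edgeR), 22 in neutrophils, 2 in Neut Lcn2 and 83 in CD4 Lef1 cells. Size factors by the median of ratios moved the median of all monocyte genes from 0.020 to -0.083. With no filter 502 were called in monocytes, 2 in neutrophils, 239 in T cells and 2 in NK cells. With at least 10 UMIs in 3 mice 304 were called in monocytes, 157 in T cells and 9 in NK cells. With at least 20 cells 11 were called in NK cells, and with cells of at least 1000 UMIs 0 in neutrophils. The most numerous subtype alone gave 1 in neutrophils and 49 in T cells, and without the deeply sequenced batches 10 were called in NK and in NK Ncr1 cells. The cause was not tested for any of these.

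With at least 20 cells of the lineage fewer subtypes were tested, and 1 was called (CD8 Gzmk). As means of plates the activated to naive ratio was -1.14 and passed the threshold. With cells of at least 1000 UMIs the T cell share differed by 2.98 points and the myeloid to lymphoid ratio by -0.20. As centred log-ratios neutrophils had 0.048, DCs 0.19 and T cells 0.33. CD8 Dapl1 had -0.013 as a percent of all immune cells and -0.57 without the deeply sequenced batches. Without those batches the neutrophil to T cell ratio was 0.16, median UMIs differed by 248, genes by 2.23, mitochondrial UMIs by 0.670 points and wells with enough UMIs by 23.2 points. All of these shares and ratios that had the opposite sign were differences that had not passed the test.

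Leaving out each mouse gave 96 (without Pre-MET mouse 8) to 201 called genes in monocytes, 1 to 8 in neutrophils, 45 (without Pre-MET mouse 9) to 122 in T cells, 8 to 22 in NK cells, 79 to 171 in Mon Fn1, 0 to 2 in Neut Lcn2, 26 to 75 in CD4 Lef1 and 9 to 23 in NK Ncr1 cells. The ratios ranged from -0.64 to 0.13 (neutrophils to T cells), -1.281 to -1.002 (activated to naive) and -0.086 to 0.41 (myeloid to lymphoid). Median UMIs differed by -25.3 to 134 and mitochondrial UMIs by 0.626 to 0.741 points. Shares differed by -2.65 to 0.66 points for T cells, -1.98 to 3.80 for Mon Fn1 and -0.56 to 1.25 for CD8 Dapl1.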

Other observations

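B cells and DCs were tested in 3 Pre-MET and 5 or 3 distal normal mice. In B cells 12 genes were lower in Pre-MET lung. Cd74, the MHC class II invariant chain, had 3253, 1819 and 1846 CPM in Pre-MET mice and 6643 to 29345 CPM in distal normal mice without overlap (-2.78 ± 0.56 SE, adjusted p = 0.00592 by edgeR). The early relapse-free mice had 6311 and 5183 CPM, above all Pre-MET mice, and the value with the batch period as a term was -2.04 ± 0.85 SE (adjusted p = 0.741). Cd79a, a chain of the B cell receptor, had -3.40 ± 0.73 SE (adjusted p = 0.00772), and -2.25 between early and late relapse-free lungs. Ltb (-2.59), Junb and the homing receptor Ccr7 (-2.06) were also lower, and Rpl35, Rps10 and mt-Co2 were higher. Between early and late relapse-free lungs Ltb had -1.89 and Ccr7 -0.77, and with the period as a term they had -0.65 and -1.23. In DCs 0 genes were lower, and 0 of 23 ribosomal protein genes and 0 of 5 immediate early genes were called. There mt-Co2 (1.97 ± 0.42 SE) and mt-Atp6 (1.87 ± 0.40 SE) were among the 4 higher genes (both with an adjusted p of 0.0383), with 1.33 and 1.10 between early and late relapse-free lungs.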
